A study of Mus musculus with 272 samples.

Results

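The 9 genes described here encode the M-phase promoting factor, the kinase that drives cells into meiosis and mitosis, and the enzymes that switch it on and off. They are Cdk1, the catalytic subunit, its cyclins Ccnb1, Ccnb2 and Ccna2, the oocyte kinase Mos, the inhibitory kinases Wee1 and Wee2, and the activating phosphatases Cdc25b and Cdc25c. They were chosen by name for these roles, and all 9 were found among the 15854 gene symbols of the deposited table. RNA was measured in mouse germinal vesicle (GV) oocytes, which rest in prophase of the first meiotic division, in metaphase II (MII) oocytes, and in zygotes, 2-cell, 4-cell and 8-cell embryos, morulae and blastocysts. Each of these 8 stages had 4 transcriptome libraries, made from pools of 20 oocytes or embryos, and 3 sucrose gradients of lysate from about 100, each collected as 10 fractions that were sequenced singly. The labels give no strain, genotype or animal age, and they name no treatment that differs between the stages. Any difference in how oocytes and embryos of each stage were obtained cannot be told apart from the stage itself. Gradient lysates of all stages held cycloheximide, which keeps ribosomes on their transcripts, and the labels describe the sequenced RNA as poly(A) RNA. Nothing states that pools or gradients came from separate animals, so p-values measure only the spread between these samples, which may be technical.

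The M-phase promoting factor is a pair of Cdk1 and a B-type cyclin. Wee1-family kinases hold it inactive by phosphorylating Cdk1, and Cdc25 phosphatases remove these marks. In the ovary, fully grown oocytes stay arrested while Wee2 and cyclic AMP signalling keep the factor off; Cdc25b starts the first meiotic division, and Mos, through the mitogen-activated protein kinase cascade, keeps MII oocytes arrested until fertilization. Transcription is silent in the maturing oocyte, and many of its stored transcripts are switched on by lengthening of their poly(A) tails, to which CPEB1, bound to a cytoplasmic polyadenylation element near the 3′ end, contributes.

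The 3′ ends of the transcripts are shown because that element and the cleavage signal beside it lie there. The last 100 bases of the protein-coding isoforms in GENCODE release M21 (build GRCm38) were searched on the sense strand for the element, TTTTAT or TTTTAAT, and for the cleavage signal, AATAAA or ATTAAA. The element and the signal can share bases where a signal starts within the last letters of an element, which is not the case in the stretches shown. Of 8 genes read this way, 3 held the element (Ccnb1, Ccna2 and Wee2) and 8 held a cleavage signal. Over 13428 genes with a protein-coding transcript, 24.3% held the element and 86.6% the signal. Only shorter isoforms of Ccnb1 (2140 bases) and Ccna2 (2001 bases) held it, not the longest ones of 2489 and 2965 bases. The stretches below are read 5′ to 3′, lie in 3′ untranslated regions and have the element or the cleavage signal in capitals.
Ccnb1: ctcatttgctgTTTTAATttatacatctga
Ccna2: tatttggataaTTTTAATtggttaacattg
Wee2: tcattgtaAATAAAgaTTTTATcttatcca
Cdk1: ctaatggcacggAATAAAaggattattcac
Mos: atatttttaggaAATAAAgttaccacgaac
In Ccnb1 and Ccna2 the capitals are the element, which begins 62 and 67 bases from the 3′ end. In Wee2 both motifs are capitalised, the cleavage signal at 26 bases and an element at 18 bases from the end. Cdk1 and Mos show their cleavage signal only, at 28 and 22 bases from the end, since the searched window of neither holds the element. A match describes these letters in this window and is no measure of CPEB1 binding.

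Values are CPM, the reads of a gene per 1 M reads of its library, and changes and differences are on the log2(CPM + 1) scale, which understates those of low genes. A gene is said to have risen or fallen where limma's moderated test gave an adjusted p under 0.05 over all genes tested and a change of at least 1. Transcriptome pools held 11.2 M to 24.3 M reads and fractions 0.0102 M to 43.2 M. In fractions, 1.85% to 2.59% of the members' values were 0 from GV oocytes to zygotes, 11.9% in 2-cell embryos and 22.6% to 41.1% later. Oocyte markers (8 of 8 in the table) summed to 13200 to 24570 CPM in pools from GV to zygote and to 45.0 to 155 CPM from the 4-cell stage on. In fractions their median sum lay above every pool of the same stage in MII oocytes (37050 CPM), zygotes (18500 CPM) and 2-cell embryos (6982 CPM). It also did so at the 4-cell stage (994 CPM, range 4.49 to 3431) and the 8-cell stage (380.5 CPM, range 37.7 to 1526). It did not in GV, morula and blastocyst fractions, where it was 17780, 54.1 and 87.9 CPM. Its part in the gradient results of these stages was not tested. Of 8 markers of cumulus and granulosa cells 4 were in the table, and their sum was 6.02 to 68.9 CPM in the pools. Blastocyst markers (6 of 6) summed to 2334 to 2836 CPM in blastocysts and to at most 398 CPM in any earlier pool.

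Between consecutive stages the transcriptome pools gave 23 called changes of members in 63 tests, 8 rises and 15 falls. From GV to MII 2 members rose and 3 fell, where 34.5% of the 14642 genes tested were called (9.11% rose, 25.3% fell). Mos fell from MII to zygote, where 10.3% of genes were called (4.48% fell). From zygote to 2-cell 5 members rose and 1 fell (33.9% of genes called, 25.2% rising and 8.71% falling). From 2-cell to 4-cell 1 rose and 4 fell (64.8% called, 31.8% rising and 32.9% falling). The later steps brought falls of members only: 1 at the 8-cell step (2.6% of genes called, 2.14% falling), 2 at the morula step (11.9% called, 3.7% falling) and 3 at the blastocyst step (26.8% called, 7.97% falling). The median change of the 9 was 1.30 at the 2-cell step, beside 0.37 over all genes, and -0.67 at the 4-cell step, beside 0.02. Such bulk pools of poly(A) RNA do not tell apart changes in transcripts per cell, in tail length and in the share of other RNA. Nor do they show whether fewer of the cells in an embryo held a transcript.

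**Figure D1:**
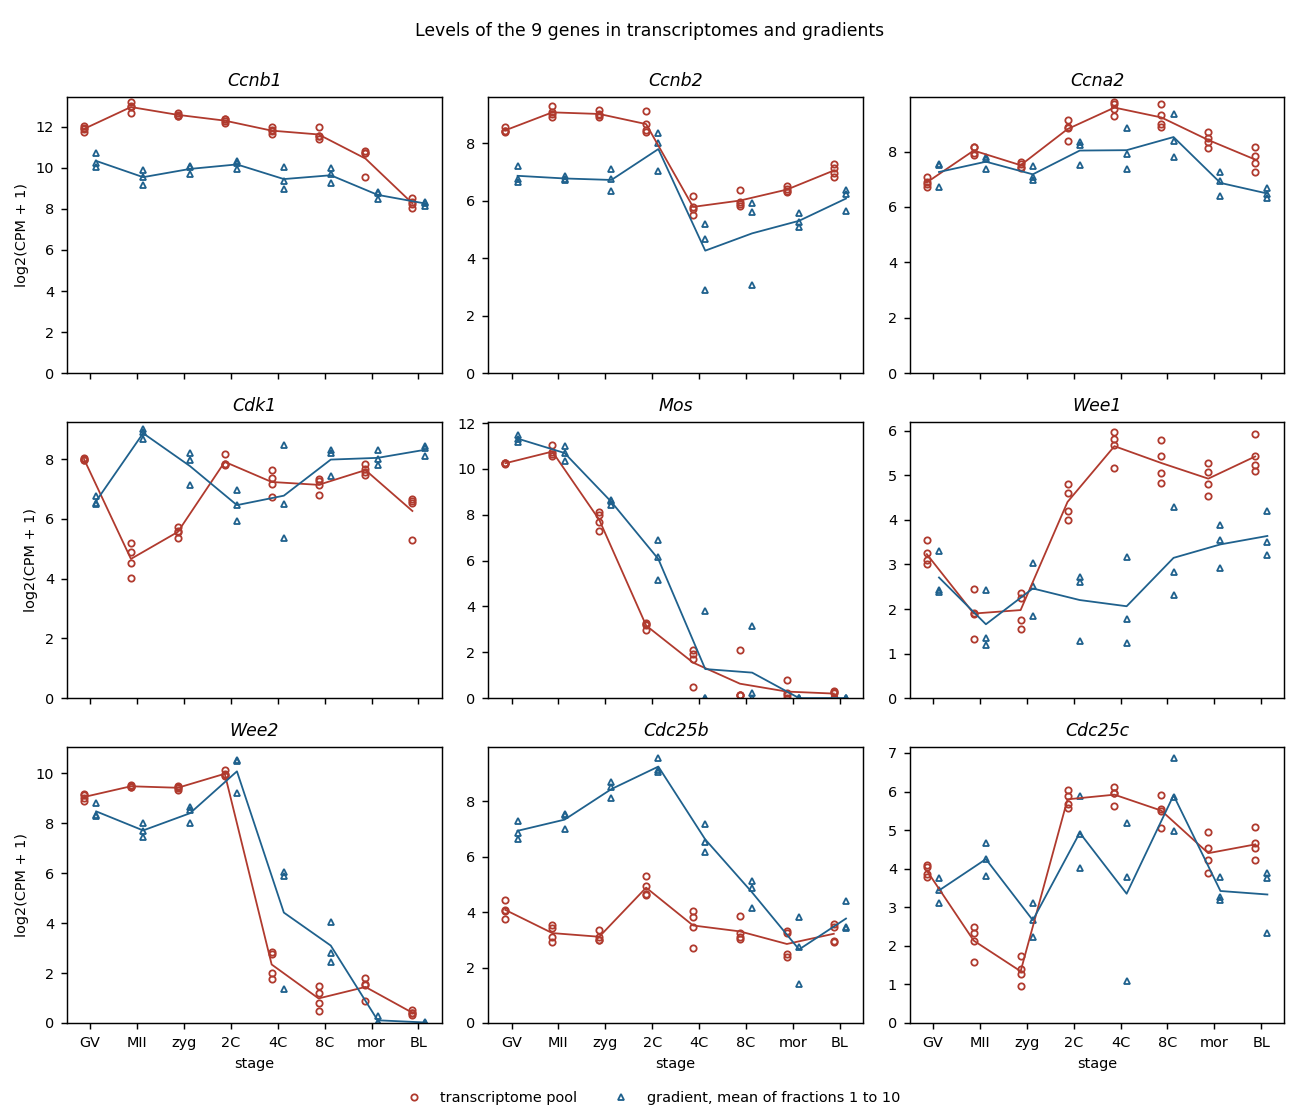
Level of each of the 9 genes, as log2(CPM + 1), at the 8 stages (zyg, zygote; 2C, 4C and 8C, embryos by cell number; mor, morula; BL, blastocyst). Red circles are the 4 transcriptome pools, blue triangles the mean of fractions 1 to 10 in each of the 3 gradients, and lines join the stage means; in the Cdk1 panel the lines part at the MII stage, with a mean of 25.5 CPM in pools and 469.5 CPM in gradients.

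Ccnb1 encodes cyclin B1, a B-type partner of Cdk1. The GV pools measured 3461, 3856, 3727 and 4151 CPM, and the MII pools 6400, 7954, 9324 and 8289 CPM. Every MII pool lay above every GV pool. Ccnb1 rose by 1.06 (SE 0.17, limma adjusted p = 1.50e-06). The change was 0.98 without MII pool C and 0.94 with quantile normalization, so the call needs both that pool and the CPM scale; quantile normalization moved the median change of all genes at this step from -0.11 to 0.15. From the MII stage the level went down in steps, to 6087 ± 264 CPM in zygotes, 5015 ± 282 in 2-cell, 3584 ± 324 in 4-cell and 3185 ± 632 CPM in 8-cell embryos (SD, n = 4), none of which was called. Morula pools measured 742, 1691, 1771 and 1688 CPM and blastocyst pools 362, 318, 259 and 298 CPM. The first morula pool, A, stands far below the other 3, and no blastocyst pool reaches it. Ccnb1 fell by 1.17 at the morula step (SE 0.17, limma adjusted p = 2.14e-06), a call that is lost without pool A (-0.87). At the blastocyst step it fell by 2.18 (SE 0.17, limma adjusted p = 7.14e-13). In order of mean level the stages run MII, zygote, 2-cell, GV, 4-cell, 8-cell, morula, blastocyst. Pools of neighbours in that order overlap for MII and zygote, GV and 4-cell, and 4-cell and 8-cell.

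Ccnb2, the second B-type cyclin, is known to share much of the work of cyclin B1. It stayed within 331 to 626 CPM in all 16 pools from GV to 2-cell, with means of 349 ± 16.5 in GV, 541 ± 61.2 in MII, 519 ± 41.0 in zygote and 414 ± 103 CPM in 2-cell pools. Then it fell. The 2-cell pools were at 561, 409, 331 and 356 CPM and the 4-cell pools at 43.9, 70.3, 51.1 and 54.7 CPM, with no overlap. The change was -2.88 (SE 0.15, limma adjusted p = 3.62e-19). The 4-cell mean, 55 ± 11.2 CPM, was the lowest of the 8 stages, and the means of the next stages were 64.0 ± 11.9, 82.9 ± 5.44 and 133 ± 17.4 CPM (SD, n = 4), with changes of 0.22, 0.38 and 0.66 that did not reach the size of a call. In order of level, neighbouring stages overlap from MII down to GV and from morula down to 4-cell embryos; GV and blastocyst pools do not overlap, nor do blastocyst and morula pools.

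Per kilobase of their longest transcripts, cyclin B1 exceeded cyclin B2 in every pool. The ratio of Ccnb1 to Ccnb2 in CPM per kilobase was 6.69 ± 0.302 in GV, 9.12 ± 1.28 in MII, 7.24 ± 0.435 in zygote and 7.71 ± 1.42 in 2-cell pools (SD, n = 4). It was 41.5 ± 9.66 in 4-cell and 31.4 ± 8.62 in 8-cell pools, 10.9 ± 3.47 in morulae and 1.43 ± 0.0355 in blastocysts. The lowest 4-cell pool, at 28.2, lay above the highest pool of every earlier stage, at 10.1, and the blastocyst pools, from 1.40 to 1.47, lay below all others. Levels per length depend on the isoform used, and the ratio is on the linear scale.

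**Figure D2:**
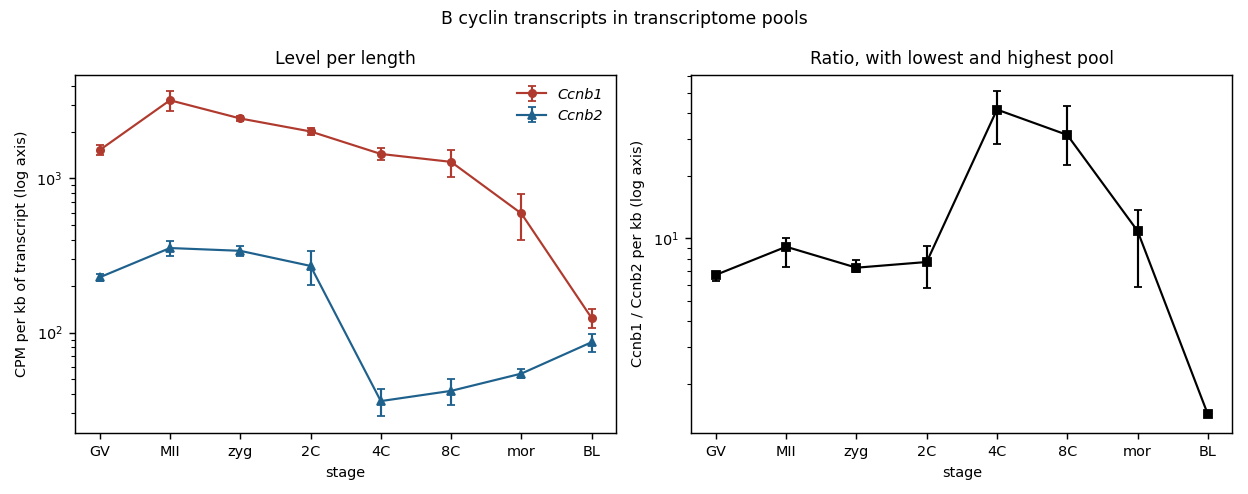
B cyclin transcripts in the transcriptome pools at the 8 stages. Left, mean CPM per kilobase with SD (n = 4, log axis) of Ccnb1 and Ccnb2; right, mean ratio of Ccnb1 to Ccnb2 with the lowest and highest pool (log axis), which is largest at the 4-cell stage, 41.5, and smallest in blastocysts, 1.43.

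Ccna2 encodes cyclin A2, which partners Cdk1 and Cdk2 in S phase and at mitotic entry. GV pools held 105, 118, 113 and 136 CPM and MII pools 288, 233, 284 and 246 CPM, without overlap, and Ccna2 rose by 1.15 (SE 0.17, limma adjusted p = 6.21e-07). Zygote pools, at 175, 196, 167 and 188 CPM, lay below the 2-cell pools, at 562, 334, 456 and 473 CPM. This rise of 1.30 (SE 0.17, limma adjusted p = 5.91e-08) was 0.998 with edgeR and 0.93 with DESeq2 on the recovered reads, just short of a call. Unlike the B cyclins, Ccna2 had its highest mean in 4-cell pools, 775 ± 116 CPM, followed by 8-cell (616 ± 165), 2-cell (456 ± 94.0), morula (345 ± 56.1), MII (263 ± 27.4), blastocyst (214 ± 58.1), zygote (181 ± 12.9) and GV pools (118 ± 13.3 CPM; SD, n = 4). Each neighbouring pair in this order overlapped except zygote and GV.

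Cdk1, the catalytic subunit, gave 3 calls in pools. GV pools were at 252, 252, 264 and 255 CPM and MII pools at 35.8, 28.8, 15.1 and 22.2 CPM. All MII pools lay far below all GV pools, and Cdk1 fell by 3.34 (SE 0.22, limma adjusted p = 2.20e-15). Zygote pools held 46.3, 40.4, 47.7 and 51.9 CPM, all above the MII pools, with a change of 0.90 that is short of a call. In 2-cell pools it was at 227, 228, 286 and 225 CPM, above every zygote pool, a rise of 2.35 (SE 0.22, limma adjusted p = 3.25e-11). The means at the 4-cell, 8-cell and morula stages were 154 ± 39.5, 142 ± 21.8 and 199 ± 20.4 CPM (SD, n = 4), with no call between them. Blastocyst pools measured 99.7, 90.9, 38.3 and 95.8 CPM, below all morula pools, and Cdk1 fell by 1.37 (SE 0.22, limma adjusted p = 3.89e-06). The order of means is GV, 2-cell, morula, 4-cell, 8-cell, blastocyst, zygote, MII, and pools overlap between neighbours except from 8-cell to blastocyst and from zygote to MII.

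Mos, the kinase that starts the mitogen-activated protein kinase cascade of the oocyte, was lost in steps after the MII stage. The MII pools held 2126, 1694, 1616 and 1527 CPM, and the GV pools 1215, 1234, 1195 and 1209 CPM, which all lie below them; the change of 0.51 was no call. Zygote pools fell to 281, 203, 157 and 256 CPM, a change of -2.97 (SE 0.30, limma adjusted p = 1.49e-09). By the 2-cell stage the pools were at 8.34, 8.20, 8.63 and 6.85 CPM, a further fall of 4.61 (SE 0.30, limma adjusted p = 2.20e-15). No pool of these 4 stages overlaps one of another. Mos fell again, by 1.62 (SE 0.30, limma adjusted p = 1.15e-05), to 0.405 to 3.27 CPM in 4-cell pools, where the lowest rests on 8 reads. In 8-cell pools 3 were near 0.1 CPM and 1, pool B, was at 3.25 CPM. The change to the 8-cell stage was -0.92, with no call; without pool B it was -1.41 (limma adjusted p = 5.97e-04). Morulae and blastocysts ranged from 0 to 0.725 CPM, and their pools overlap.

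Wee1 and Wee2 encode kinases that inhibit Cdk1, Wee1 in most cells and Wee2 mainly in oocytes. Wee2 was at 529 ± 45.0 CPM in GV, 710 ± 20.5 in MII and 682 ± 30.2 CPM in zygote pools (SD, n = 4), with no call between them. The 2-cell pools were the highest, at 996, 945, 1126 and 962 CPM, and the 4-cell pools were at 2.37, 5.76, 6.16 and 3.04 CPM. Wee2 thus had the largest change of any member in pools, -7.63 (SE 0.20, limma adjusted p = 2.39e-27). Smaller falls followed at low levels, with changes of -1.36 to 8-cell pools (1.04 ± 0.605 CPM) and of -1.03 from morula (1.79 ± 0.706 CPM) to blastocyst (0.330 ± 0.0747 CPM), the latter short of a call without morula pool B (-0.91) or C (-0.99). In order of level, MII and zygote pools overlap, as do 4-cell with morula, morula with 8-cell and 8-cell with blastocyst pools.

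Wee1 went the other way. GV pools held 7.10, 7.64, 10.7 and 8.52 CPM and MII pools 2.72, 2.79, 1.5 and 4.49 CPM, without overlap, and Wee1 fell by 1.33 (SE 0.25, limma adjusted p = 2.17e-05). With quantile normalization this change was -0.55 (adjusted p = 0.06). Zygote pools, at 2.37, 1.94, 3.74 and 4.11 CPM, overlapped the MII pools. Wee1 then rose by 2.43 to the 2-cell pools, at 17.4, 14.9, 27.0 and 23.4 CPM (SE 0.25, limma adjusted p = 2.10e-10). It rose once more, by 1.25, to the 4-cell pools, at 50.1, 34.8, 61.5 and 55.6 CPM (SE 0.25, limma adjusted p = 2.75e-05). From the 4-cell stage to the blastocyst the pools overlapped between all neighbours in order of level, from 50.5 ± 11.5 CPM in 4-cell to 30.0 ± 6.66 CPM in morula pools, and 2-cell pools overlapped morula pools. At the 4-cell step Wee1 and Wee2 were thus both called, in opposite directions.

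Cdc25b encodes the phosphatase that starts meiosis in mouse oocytes. It was low in pools at all stages, from 6.55 ± 2.53 CPM in morulae to 29.1 ± 6.78 CPM in 2-cell embryos (SD, n = 4). It rose by 1.77 from zygote pools, at 7.59, 9.24, 7.01 and 6.94 CPM, to 2-cell pools, at 38.4, 24.2, 23.9 and 29.9 CPM (SE 0.26, limma adjusted p = 3.50e-07). It fell by 1.36 to 4-cell pools, at 15.6, 10.2, 13.3 and 5.52 CPM (SE 0.26, limma adjusted p = 1.29e-05). The 2-cell pools lie above all others. Second in order are GV pools (16.2 ± 3.40 CPM), and from there on each stage overlaps the next.

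Cdc25c, a further phosphatase of the same family, had a stronger course. GV pools held 13.6, 15.6, 12.8 and 16.2 CPM and MII pools 4.03, 3.35, 2.02 and 4.65 CPM, a fall of 1.82 (SE 0.22, limma adjusted p = 1.12e-08). Zygote pools were at 2.32, 1.66, 1.40 and 0.945 CPM and 2-cell pools at 65.2, 46.9, 57.6 and 50.6 CPM, a rise of 4.46 (SE 0.22, limma adjusted p = 1.06e-18), the largest rise of any member in pools. Cdc25c was 60.0 ± 8.30 CPM in 4-cell and 45.4 ± 11 CPM in 8-cell pools. It fell by 1.10 to morula pools, at 20.9 ± 6.82 CPM (SE 0.22, limma adjusted p = 2.70e-04), which was -0.97 without 8-cell pool D and -0.93 without morula pool D, both short of a call. Blastocyst pools were at 24.3 ± 6.41 CPM. In order of level, the pools of 4-cell, 2-cell, 8-cell, blastocyst, morula and GV overlap from each to the next, GV and MII pools do not, and MII and zygote pools do.

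The position of a transcript along the gradient was read from the mean CPM of fractions 6 to 10, called the heavy side here because polysomes sediment fast, and of fractions 1 to 5, the light side. The labels only number the fractions. Since CPM sets every fraction to one total, a position compares a transcript with the other RNA of the same fractions, not amounts. Members past the filter on low values numbered 9 up to the 2-cell stage, 8 at the 4-cell and 8-cell stages and 7 later. Over the 8 stages 11 comparisons of heavy with light were called, 10 to the heavy and 1 to the light side. No member was called by limma or edgeR in GV oocytes, where 2.45% of all genes were called by limma, and none had an unadjusted p under 0.05. MII oocytes had 3 of 9 members called heavy, where 19.5% of genes were called on either side and 12.7% on the heavy side. Zygotes had 4 of 9 called heavy, where 18.5% of genes were called and 13.2% on the heavy side. In 2-cell embryos 1 was called heavy (1.9% of genes called, 0.809% heavy) and in morulae 1 (14.7%, 8.26% heavy). Blastocysts had 1 heavy and 1 light member (21.7% called, 9.96% heavy and 11.8% light). None was called by limma or edgeR in 4-cell embryos (0% of genes; 1276 genes but no member had an unadjusted p under 0.05 by limma) or in 8-cell embryos (2.55%; 4 members had an unadjusted p under 0.05 by limma). With 1 fit over all stages, which sets the spread of every stage from all of them, 5 heavy and 3 light calls were made, and Ccnb2 and Mos in MII oocytes, Ccnb2 and Wee2 in zygotes, Cdk1 in morulae and blastocysts and Wee1 in blastocysts were not among them (adjusted p = 0.27 to 0.68). The median difference of the members was 0.26 in GV and 0.50 in MII oocytes and 0.49 in zygotes, beside 0.20, -0.07 and -0.05 over all genes.

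**Figure D3:**
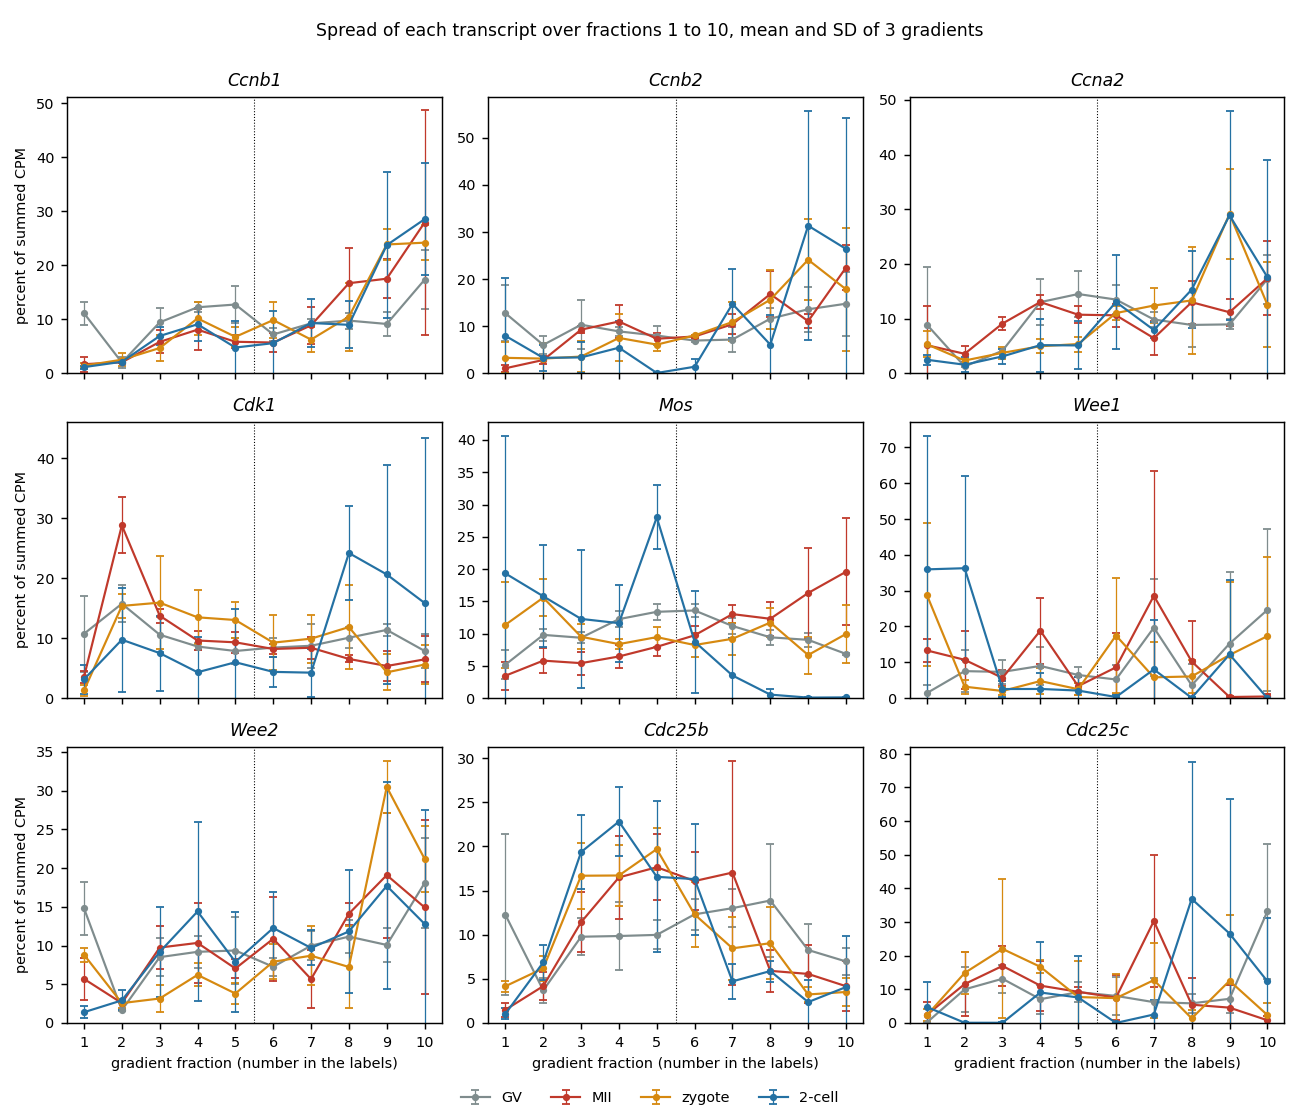
Share of the summed CPM of fractions 1 to 10 that lay in each fraction, for the 9 genes in GV and MII oocytes, zygotes and 2-cell embryos, with the mean and SD of 3 gradients; the dotted line parts the light from the heavy side. Ccnb1 and Mos lean to the right in MII oocytes, Cdk1 has its highest point in fraction 2 there, and several 2-cell points have an SD as large as their mean.

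Ccnb1 was called heavy in MII oocytes, zygotes and 2-cell embryos. The share of its summed CPM in the heavy fractions was 55.8%, 49.9% and 52.0% in the GV gradients A to C, 67.2%, 82.3% and 80.3% in MII, 72.3%, 70.5% and 80.8% in zygote and 72.0%, 80.5% and 75.6% in 2-cell gradients. All 9 MII, zygote and 2-cell gradients lie above all 3 GV gradients. In MII oocytes the heavy side measured 773, 1569 and 1204 CPM and the light side 378, 337 and 295 CPM, a difference of 1.76 (SE 0.27, limma adjusted p = 0.0012). The difference was 1.57 in zygotes (SE 0.23, limma adjusted p = 0.0013) and 1.68 in 2-cell embryos (SE 0.22, limma adjusted p = 0.012), with no overlap of sides at these stages. In 2-cell embryos the call is lost without gradient B or C (adjusted p = 0.068 and 0.064) and with no filter on low values (adjusted p = 0.067). The 4-cell gradients had 19.5%, 44.3% and 47.4% of Ccnb1 in heavy fractions, below all 2-cell gradients; the sides overlapped there and the difference was not called (-0.84, SE 0.57). Between 48.4% and 68.4% was heavy in all later gradients.

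For Ccnb2 the heavy share was 52.8%, 49.7% and 59.6% in GV, 67.0%, 69.8% and 68.8% in MII, 79.1%, 63.5% and 86.9% in zygote and 90.5%, 74.6% and 74.8% in 2-cell gradients, and none of the MII, zygote and 2-cell gradients lies below the highest GV gradient. It was called heavy in MII oocytes (1.11, SE 0.25, limma adjusted p = 0.0091) and zygotes (1.79, SE 0.34, limma adjusted p = 0.0049). The MII call is lost without gradient B (adjusted p = 0.11) or C (adjusted p = 0.052). In 2-cell embryos the difference was as large, 2.10, with an SE of 0.71 and an adjusted p of 0.12. The morula difference of 1.13 (SE 0.36, adjusted p = 0.058) had an adjusted p of 0.039 when heavy and light were paired by gradient, which makes it a call.

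Ccna2 was called heavy in zygotes. In MII oocytes its heavy side was at 222, 267 and 206 CPM and its light side at 219, 156 and 126 CPM, which overlap (0.50, SE 0.27, adjusted p = 0.22). In zygotes the heavy side was at 178, 218 and 294 CPM and the light side at 70.2, 53.5 and 59.8 CPM. These do not overlap, and the difference was 1.87 (SE 0.26, limma adjusted p = 9.51e-04). The 2-cell difference was 2.33 (SE 0.56, adjusted p = 0.059), which is a call with 1 fit over all stages (adjusted p = 9.76e-04) and with fractions 7 to 10 against 1 to 4 or 8 to 10 against 1 to 3 (adjusted p = 0.038 and 0.015). The test of the change in position from MII to zygote gave 1.37 (SE 0.47, adjusted p = 0.39).

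Mos was called heavy in MII oocytes. Its GV gradients were evenly split, with 52.0%, 48.4% and 49.8% in heavy fractions, heavy levels of 2969, 2473 and 2282 CPM and light levels of 2743, 2635 and 2303 CPM. In MII oocytes the heavy share was 72.6%, 78.1% and 62.0%, with 1907, 3223 and 2069 CPM heavy and 721, 904 and 1265 CPM light. The MII sides do not overlap, and the difference was 1.31 (SE 0.27, limma adjusted p = 0.0059); without gradient B it was 1.06 (adjusted p = 0.06). Zygote gradients had 40.0%, 53.4% and 43.9% in heavy fractions, and 2-cell gradients 2.45%, 26.1% and 10.4%. All 2-cell heavy levels, 1.70, 36.8 and 24.6 CPM, lay below all light levels, 67.5, 104 and 211 CPM, a difference of -3.06 with an SE of 1.08 and an adjusted p of 0.14. It is a call with 1 fit over all stages (adjusted p = 0.0097) and with fractions 8 to 10 against 1 to 3 (-5.92, adjusted p = 0.028).

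Cdk1 lay lighter in MII oocytes and was called heavy in morulae and blastocysts. Its highest fraction was number 2 in all 3 GV and all 3 MII gradients. In MII oocytes fraction 2 held 1209, 1744 and 1131 CPM, against 203, 115 and 142 CPM in fraction 2 of the GV gradients. The MII heavy share was 41.1%, 32.4% and 31.3%, with 398, 333 and 258 CPM on the heavy and 571, 693 and 565 CPM on the light side. All 3 gradients lean to the light side without overlap, at a difference of -0.90 (SE 0.24, limma adjusted p = 0.02), short of the size of a call; it is a call with edgeR (-1.01, adjusted p = 0.014), with fractions 8 to 10 against 1 to 3 (-1.36, adjusted p = 0.0086) and without gradient A (-1.09, adjusted p = 0.035). In 8-cell embryos the heavy side was at 224, 547 and 431 CPM and the light side at 121, 93.3 and 156 CPM, without overlap. The 8-cell difference of 1.625 was no call (limma adjusted p = 0.068). It is a call with fractions 7 to 10 against 1 to 4 (2.04, adjusted p = 0.034) and 8 to 10 against 1 to 3 (2.19, adjusted p = 0.03). In morulae the heavy side was at 475, 299 and 355 CPM and the light side at 160, 149 and 159 CPM, and in blastocysts at 410, 478 and 468 CPM against 145, 188 and 223 CPM. Neither pair of sides overlaps. The differences were 1.24 (SE 0.24, limma adjusted p = 0.0074) and 1.30 (SE 0.20, limma adjusted p = 7.30e-04). Quantile normalization brought them to 0.81 and 0.95, under the size of a call, and edgeR gave 0.97 (adjusted p = 0.1) in morulae.

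Wee2 was called heavy in zygotes, where its heavy side held 535, 377 and 643 CPM and its light side 206, 139 and 149 CPM (1.63, SE 0.26, limma adjusted p = 0.0019). Its heavy share was 60.9%, 57.5% and 51.1% in GV and 72.2%, 73.0% and 81.2% in zygote gradients, which do not overlap. It was 52.6%, 66.4% and 75.0% in MII and 76.7%, 65.2% and 50.8% in 2-cell gradients, and both overlap GV. In 8-cell embryos, at 0%, 1.94% and 0%, the difference was -3.76 (limma adjusted p = 0.056). With 1 fit over all stages it is a call to the light side (limma adjusted p = 7.66e-04), as with fractions 7 to 10 against 1 to 4 (limma adjusted p = 0.044). Wee1 was called light in blastocysts, at 2.48, 6.23 and 6.55 CPM on the heavy and 14.0, 14.6 and 28.3 CPM on the light side (-1.72, SE 0.45, limma adjusted p = 0.015). That call is lost without gradient A (-1.53, adjusted p = 0.066) or C (-1.61, adjusted p = 0.07) with edgeR (-0.82, adjusted p = 0.37) and with no filter (adjusted p = 0.051). Wee1 values at 0 in fractions numbered 16 of 30 in 2-cell, 22 of 30 in 4-cell and 16 of 30 in 8-cell embryos.

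The phosphatases were not called on either side at any stage with fractions 6 to 10 against 1 to 5. Cdc25b lay lighter in zygotes, with 304, 337 and 151 CPM heavy and 426, 483 and 408 CPM light (-0.81, SE 0.30, adjusted p = 0.08). In 2-cell embryos it had 511, 336 and 344 CPM heavy and 602, 1178 and 734 CPM light (-1.04, SE 0.33, adjusted p = 0.1), a call to the light side with fractions 7 to 10 against 1 to 4 (-1.61, adjusted p = 0.039). Its sides overlap at neither stage, and fraction 5 was the highest in all 3 zygote gradients. For Cdc25c the differences ran from -2.03 (SE 1.80) in 4-cell to 2.36 (SE 1.28) in 2-cell embryos, with intervals of 2 SE that include 0 except in 8-cell embryos (-1.69, SE 0.65, adjusted p = 0.19).

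**Figure D4:**
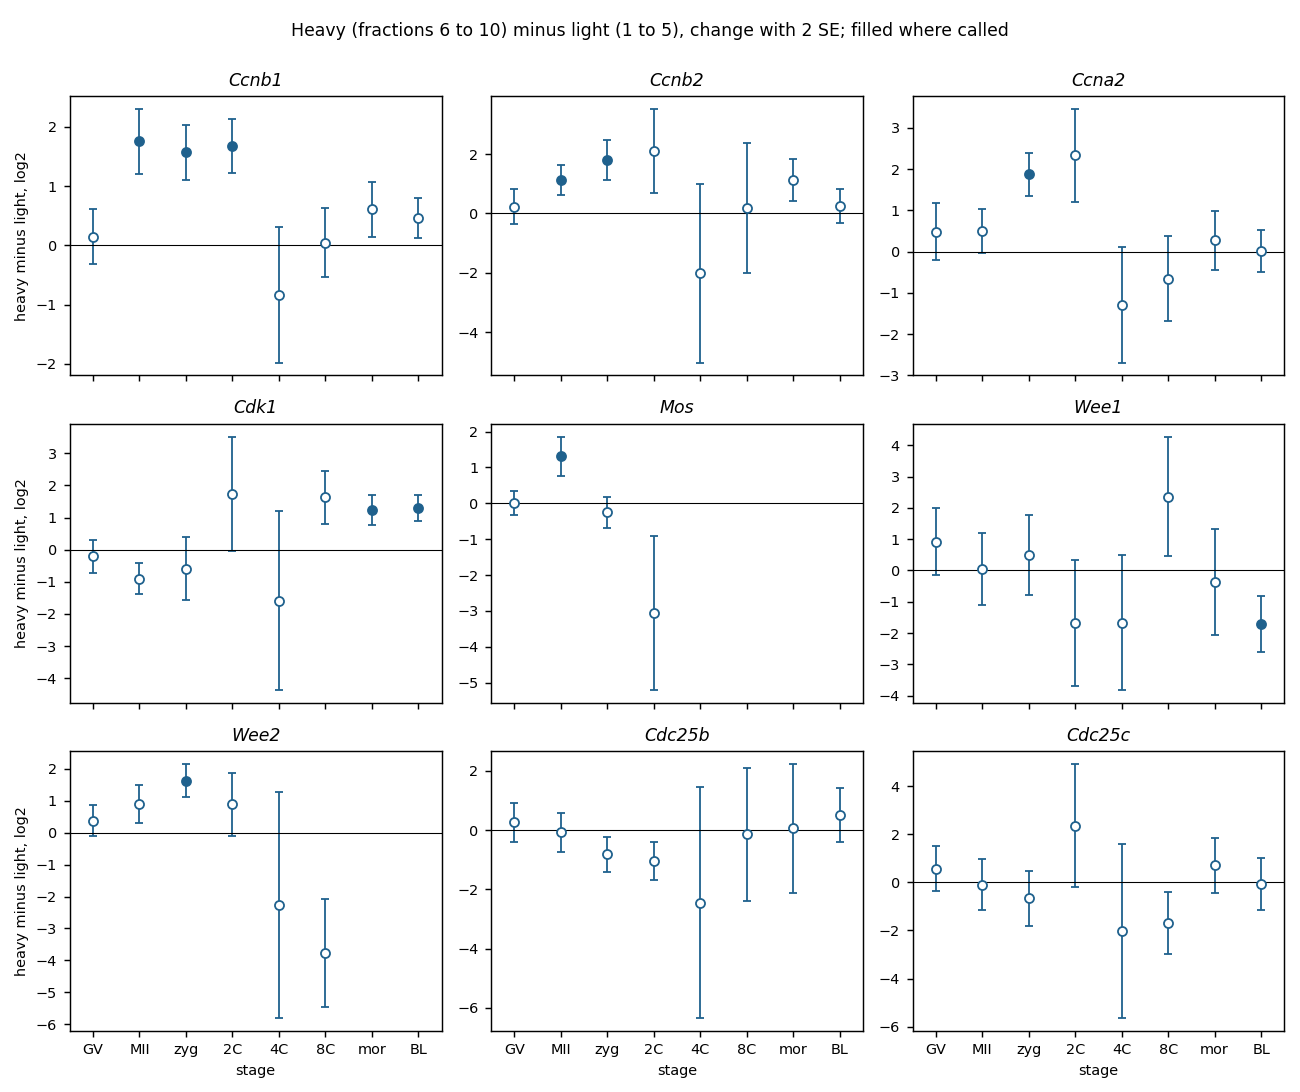
Difference between heavy (fractions 6 to 10) and light (fractions 1 to 5) levels on the log2 scale for the 9 genes at each stage, with bars of 2 SE (limma, 3 gradients) and filled points where called; genes too low to be tested have no point. Ccnb1 is filled at 1.76, 1.57 and 1.68 in MII oocytes, zygotes and 2-cell embryos, and the 4-cell bars are the widest in each of the 8 panels that have one.

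Whether a position changed between consecutive stages was tested directly, as the difference of heavy minus light within each gradient. No member and no gene was called at any of the 7 steps by limma (0% of 11401 to 12633 genes), although 771 to 1887 genes a step had an unadjusted p under 0.05; no count model was run for this comparison. Among members the changes from GV to MII were 1.61 for Ccnb1 (SE 0.45, unadjusted p = 0.0077, adjusted p = 0.19) and 1.31 for Mos (SE 0.43, unadjusted p = 0.017, adjusted p = 0.23). From MII to zygote Mos changed by -1.56 (SE 0.48, unadjusted p = 0.012, adjusted p = 0.36). With 1 fit over all stages, 1 rise and 6 falls of members were called; Cdk1, Ccnb1, Ccnb2, Ccna2, Wee2 and Cdc25c fell in position from 2-cell to 4-cell and Wee2 rose from 8-cell to morula. A call at one stage and none at the next therefore does not show that a position moved.

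Heavy-fraction levels between consecutive stages gave 9 calls of members, 2 rises and 7 falls. Cdk1 rose from GV to MII, from 89.0, 91.7 and 86.2 CPM to 398, 333 and 258 CPM, without overlap (1.86, SE 0.26, limma adjusted p = 3.74e-04; 22.5% of 11516 genes called, 6.23% rising). From MII to zygote only Mos was called, from 1907, 3223 and 2069 CPM to 321, 409 and 302 CPM (-2.77, SE 0.29, limma adjusted p = 5.32e-04; 6.93% of genes called, 2.48% falling). From zygote to 2-cell Mos fell by 4.64 (SE 0.98, limma adjusted p = 0.019) and Cdc25c rose by 3.27 (SE 0.92, limma adjusted p = 0.049), where 18.1% of genes were called, 4.68% rising and 13.4% falling. Cdc25c heavy levels went from 4.02, 7.59 and 1.60 CPM to 75.0, 21.9 and 56.6 CPM, without overlap. Mos loses its call without any 1 of the zygote gradients (adjusted p = 0.12 to 0.14), and Cdc25c without any zygote gradient or 2-cell gradient A or C (adjusted p = 0.078 to 0.27). The Cdc25c call is also lost with edgeR (adjusted p = 0.074), a pseudocount of 0.1 (0.067), no filter (0.061) and the replicate block (0.12), in all under 9 of 14 alternatives. At this step edgeR made calls of Wee2 (1.97, adjusted p = 0.038) and Ccna2 (1.47, adjusted p = 0.038), and the block one of Wee2 (1.43, adjusted p = 0.038). With 1 fit over all stages the calls of Cdk1 from GV to MII and of Mos from MII to zygote are lost (adjusted p = 0.36 and 0.15).

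From 2-cell to 4-cell 4 of the 8 members tested fell in the heavy fractions, where 29.2% of 8390 genes were called and 17.5% fell. Wee2 went from 2270, 768 and 1450 CPM to 0.830, 14.4 and 11.7 CPM (-7.58, SE 1.01, limma adjusted p = 0.0056). Ccnb2 went from 233, 491 and 382 CPM to 0.521, 6.68 and 30.9 CPM (-5.62, SE 1.22, limma adjusted p = 0.016). Both drop without overlap, as Ccnb2 and Wee2 do in pools at this step. Ccnb1 fell by 1.85 (SE 0.57, limma adjusted p = 0.047), from 1401, 2069 and 1806 CPM to 197, 573 and 980 CPM, while its change in pools, -0.49, was no call. Mos had 2294 reads in the heavy fractions of the 2-cell gradients and 0 reads in those of the 4-cell gradients, which held 175 M reads. Set against 3 reads over the group, its summed share was at least 795-fold lower, a bound that covers counting error only, since reads are amplified. Mos, Wee2 and Ccnb2 were under 1 CPM in at least 1 of the 4-cell gradients and passed the filter through their 2-cell levels, so the count of 4 is a description. The call of Mos (limma adjusted p = 0.04) is lost with no filter (adjusted p = 0.16) and with the replicate block (adjusted p = 0.051). Leaving out any 2-cell gradient ends the calls of Ccnb1 (adjusted p = 0.083 to 0.12) and Ccnb2 (adjusted p = 0.056 to 0.078), leaving out 4-cell gradient B ends that of Ccnb1 (adjusted p = 0.081), and leaving out any 4-cell gradient ends that of Mos (adjusted p = 0.088 to 0.1). With edgeR the calls of Ccnb1 (adjusted p = 0.09) and Ccnb2 (adjusted p = 0.072) are lost, and that of Ccnb1 also with a pseudocount of 0.1 (adjusted p = 0.054) and with no filter (adjusted p = 0.16). The 4 cumulus and granulosa markers in the table summed to 0 to 160 CPM in 2-cell fractions (median 0.216) and to 0 to 1274 CPM in 4-cell fractions (median 303). Their part in these changes was not tested.

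At later steps 1 member was called in the heavy fractions. Ccna2 fell from 8-cell to morula, from 235, 348 and 262 CPM to 109, 122 and 150 CPM, without overlap (-1.14, SE 0.28, limma adjusted p = 0.033; 14.2% of genes called, 5.12% falling). The call is lost without 8-cell gradient B or C or any morula gradient (adjusted p = 0.061 to 0.16), with 1 fit over all stages (adjusted p = 0.12) and with the replicate block (adjusted p = 0.078). No member was called from 4-cell to 8-cell (0% of genes by limma and by edgeR, with 892 and 631 genes at an unadjusted p under 0.05) or from morula to blastocyst (1.25%). Mos and Wee2 were not tested at these steps. In the 30 morula fractions Mos had 0 reads of 796 M, which allows up to 0.0038 CPM. This limit covers counting error only, since amplified reads carry no molecular identifiers.

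The course of Cdk1 in pools ran against its course in the gradients, so the change in the mean of fractions 1 to 10 was set against the change in the pools at each step; this comparison was added after these values were seen. Cdk1 gradient means were 108, 91.0 and 89.9 CPM in GV oocytes, 484, 513 and 411 CPM in MII oocytes, 251, 293 and 139 CPM in zygotes and 60.7, 87.4 and 125 CPM in 2-cell embryos. They are highest where the pools are lowest. From GV to MII the change was 2.27 in gradients and -3.34 in pools, a difference of 5.62 (SE 0.30, limma adjusted p = 1.74e-10; 34.1% of 12712 genes called, 24.1% higher). From MII to zygote the changes were -1.10 and 0.90 (difference -2.01, SE 0.37, limma adjusted p = 7.82e-04; 19.3% of genes called, 8.56% lower) and from zygote to 2-cell -1.31 and 2.35 (difference -3.65, SE 0.38, limma adjusted p = 3.63e-05; 28.5% of genes called, 24.1% lower). From morula to blastocyst they were 0.27 and -1.37 (difference 1.64, SE 0.35, limma adjusted p = 0.0041; 15.5% of genes called, 4.81% higher). Gradient lysates were cleared by centrifugation, per the labels' protocols, and how the pools were lysed is not given in the sources used here. The mean of fractions 1 to 10 weighs each fraction alike, whatever amount of RNA it held, so it is no total of the gradient. A transcript's number, its tail length, its recovery and its place along the gradient cannot be told apart in this comparison.

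From GV to MII 6 of 9 members differed between gradients and pools, 3 higher and 3 lower (24.1% and 10% of genes), with opposite signs in each. The share of all genes with opposite signs is not given here. The gradients were lower and the pools higher for Ccnb1 (-0.79 against 1.06; difference -1.85, SE 0.25), Mos (-0.63 against 0.51; difference -1.14, SE 0.21) and Wee2 (-0.76 against 0.43; difference -1.19, SE 0.22). For Cdc25c (0.81 against -1.82; difference 2.63, SE 0.39) and Cdc25b (0.40 against -0.83; difference 1.24, SE 0.32) it was the reverse, as for Cdk1. These 5 differences had limma adjusted p-values from 8.62e-06 to 0.0047. The difference for Mos was -0.97 without MII gradient A. With fractions 6 to 10 only, Cdc25b and Mos were no longer called (adjusted p = 0.094 and 0.061), and quantile normalization ended the calls of Cdc25b (0.66) and Wee2 (-0.91). With 1 fit over all stages those of Mos (adjusted p = 0.41), Wee2 (adjusted p = 0.32) and Cdc25b (adjusted p = 0.096) were lost.

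As a mean of fractions 1 to 10, Cdc25b stood higher in gradients than in pools from GV to 8-cell. Its gradient means were 157, 98.3 and 116 CPM in GV, 127, 179 and 184 in MII, 365, 410 and 280 in zygote and 556, 757 and 539 CPM in 2-cell gradients, while no pool of these stages exceeded 38.4 CPM. Every one of these gradients lies above every pool. From MII to zygote the change was 1.10 in gradients and -0.13 in pools (difference 1.24, SE 0.30, limma adjusted p = 0.007), where 10.7% of genes were called higher, and with fractions 6 to 10 only the difference was 0.83 (adjusted p = 0.28). With 1 fit over all stages the call is lost as well (adjusted p = 0.18). The 4-cell gradient means were 145, 70.5 and 91.0 CPM, and no 4-cell pool exceeded 15.6 CPM. In 8-cell gradients they were 16.8, 28.2 and 33.5 CPM, and no 8-cell pool exceeded 13.5 CPM. In morulae and blastocysts the gradient means, 1.63 to 20.0 CPM, overlapped the pools.

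At the 2-cell step 6 members differed, Cdk1 included, 3 higher and 3 lower (4.41% and 24.1% of genes). Wee1 changed by -0.26 in gradients and by 2.43 in pools (difference -2.69, SE 0.60, limma adjusted p = 0.0043), and Cdc25c rose less in gradients, by 2.27 against 4.46 (difference -2.19, SE 0.56, limma adjusted p = 0.0099), a call that is lost with edgeR (-1.68, adjusted p = 0.083). Ccnb2 changed by 1.07 against -0.35 (difference 1.43, SE 0.40, limma adjusted p = 0.016), Mos by -2.49 against -4.61 (difference 2.12, SE 0.46, limma adjusted p = 0.0036) and Wee2 by 1.68 against 0.56 (difference 1.12, SE 0.37, limma adjusted p = 0.034). The Wee2 call is lost without any of 10 of the 14 samples (adjusted p = 0.05 to 0.093), among them 2-cell gradient A, where it is 0.89, and with quantile normalization (0.98, adjusted p = 0.077) and 1 fit over all stages (adjusted p = 0.26). None was called from 2-cell to 4-cell (19.3% of genes) or from 4-cell to 8-cell (0.906%). Wee2 from 8-cell to morula (-3.45, SE 0.59, limma adjusted p = 0.0028; 8.05% of genes called, 4.99% lower) and Ccnb1 from morula to blastocyst (1.76, SE 0.33, limma adjusted p = 0.0014) complete the list. For Wee2 the gradient means dropped from 4.39, 15.7 and 5.98 CPM to 0.0308, 0 and 0.215 CPM, while its pools held at most 2.50 CPM at both stages. Oocyte markers had a median sum of 380.5 CPM in 8-cell and 54.1 CPM in morula fractions, and their part in this change was not tested. Taking fractions 6 to 10 only, the calls of Cdk1 from MII to zygote (-1.86, adjusted p = 0.054), Cdc25c, Wee2 and Mos from zygote to 2-cell (-1.19, 0.87 and -0.02, adjusted p = 0.22, 0.13 and 0.99) and Wee2 from 8-cell to morula (-0.67, adjusted p = 0.43) were lost.

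Of 37 further genes of the circuit, listed in 7 groups by role, 2 (Ccna1 and Spdya) were not in the table used here and 34 were tested in pools. From GV to MII 5 rose and 6 fell, where 34.5% of all genes were called (9.11% rose, 25.3% fell). Map2k1, the kinase that Mos activates, rose from 149 ± 14.0 to 393 ± 19.2 CPM (SD, n = 4; change 1.39, SE 0.13). In the direction of Cdk1, Ccnh, the cyclin of the Cdk-activating kinase, fell from 104 ± 11.9 to 33.2 ± 3.56 CPM (-1.62, SE 0.17), Ppp2ca, a catalytic subunit of PP2A, from 133 ± 4.91 to 28.1 ± 2.90 CPM (-2.20, SE 0.17), and Fzr1, an activator of the anaphase-promoting complex, from 64.1 ± 9.17 to 8.73 ± 3.99 CPM (-2.82, SE 0.28). Cdk2 fell to under 1 CPM (5.63 ± 0.384 to 0.688 ± 0.141 CPM) and Prkaca, a catalytic subunit of protein kinase A, rose at low levels, from 5.15 ± 0.746 to 12.0 ± 2.45 CPM. At the zygote step 1 of the 34 rose and 6 fell (10.3% of all genes called, 4.48% falling), and at the 2-cell step 5 rose and 7 fell (33.9% called, 25.2% rising and 8.71% falling). Cdk2 rose together with Cdk1 at the 2-cell step, from 1.82 ± 0.540 to 18.6 ± 3.29 CPM (2.80, SE 0.17). Plk1, a kinase that promotes Cdk1 activation, fell, from 141 ± 22.2 to 46.9 ± 11.3 CPM (-1.59, SE 0.17).

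From 2-cell to 4-cell, where Wee2, Ccnb2 and Mos fell in pools, 10 of the 34 rose and 11 fell, at a step where 31.8% of all genes rose and 32.9% fell, so the share called is near that of all genes (64.8%). The deepest falls were those of Mapk3, the Erk1 kinase (214 ± 61.5 to 2.30 ± 2.35 CPM; -6.29, SE 0.33), and Fbxo43, which encodes the Emi2 inhibitor of cyclin destruction (117 ± 24.1 to 0.753 ± 0.767 CPM; -6.14, SE 0.24). Pde3a, a phosphodiesterase that lowers cyclic AMP, fell from 29.7 ± 2.94 to 1.07 ± 0.648 CPM (-3.94, SE 0.28). Mastl, the Greatwall kinase, fell from 316 ± 42.3 to 68.8 ± 9.74 CPM (-2.19, SE 0.19), and Cks1b, a small Cdk subunit, from 1800 ± 143 to 340.0 ± 30.2 CPM (-2.40, SE 0.15). In the other direction Cdc25a, the third phosphatase of the family, rose from 9.92 ± 3.30 to 101 ± 27.2 CPM (3.24, SE 0.20), and Mnat1, of the Cdk-activating kinase, from 10.5 ± 1.48 to 66.0 ± 4.00 CPM (2.55, SE 0.13). All changes named here and in the paragraph before had limma adjusted p-values under 0.05. At the last 3 steps 0 and 1, 3 and 2, and 8 and 4 of the 34 rose and fell, where 2.6%, 11.9% and 26.8% of all genes were called.

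In gradients 11 of 33 tested genes of the circuit were called heavy and 1 light in MII oocytes, where 12.7% of all genes were called heavy. In zygotes it was 10 and 1 of 34 (13.2% of all genes heavy), beside 1 and 0 of 34 in GV oocytes (2.45% of all genes on either side). Mastl was heavier by 2.57 (SE 0.33) in MII oocytes and by 2.98 (SE 0.27) in zygotes. Cks2, a small Cdk subunit, was heavier by 2.64 (SE 0.34) and 2.70 (SE 0.30), and Map2k1 by 1.40 (SE 0.31) and 2.95 (SE 0.24). In MII oocytes Fbxo43 was heavier by 2.58 (SE 0.50) and Prkaca by 1.83 (SE 0.45), and in zygotes Cdc20, an activator of cyclin destruction, by 4.09 (SE 0.33). Of 7 Greatwall and PP2A-B55 genes the same 4, Mastl, Arpp19, Ppp2r1a and Ppp2r2a, were called heavy at both stages. The light ones were Mapk3 in MII oocytes (-1.07, SE 0.25) and Cdk2 in zygotes (-1.14, SE 0.36); these and the 4 were named after their values were seen. In morulae 7 of 30 genes were called heavy (8.26% of all genes), with Ccnh at the largest difference (3.14, SE 0.64), and in blastocysts 9 of 30 (9.96% of all genes), with Prkar1a, a regulatory subunit of protein kinase A, at the largest (1.58, SE 0.21). None was called light at these stages, and the 30 include Cdk2, which was heavier by 1.55 (SE 0.32) in morulae and 1.52 (SE 0.21) in blastocysts, the stages at which Cdk1 was called heavy.

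The genes whose course over 80 points (8 stages by 10 fractions, each the mean of 3 gradients) was most like that of each member were found by Pearson's correlation of log2(CPM + 1) over 8373 genes. Mos was most like Pabpn1l (r = 0.968) and Gtf2a1l (0.963), Wee2 like Trim60 (0.968) and Tcl1b2 (0.967), and Cdc25b like Slc6a9 (0.913) and Tfap2e (0.912). Lower values were found for Ccnb2 with Vta1 (0.839), Cdk1 with Psma5 (0.752), Wee1 with Hsph1 (0.656), Ccnb1 with Mad2l1 (0.642), Ccna2 with Skp2 (0.566) and Cdc25c with Pmpcb (0.471). Fractions of one stage come from the same gradients, so the points are not independent.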

How the data were processed

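The authors deposited one table of CPM values for 272 libraries, 32 transcriptomes and 240 gradient fractions; per the submitters' processing notes, reads were trimmed with Trim Galore 0.6.7, aligned with HISAT2 2.2.1 to GRCm39, counted with featureCounts 2.0.1 and handled with edgeR. Per the labels' protocols, RNA was amplified with a Smart-seq kit, so reads are not independent molecules. With repeated symbols in (159 symbols in 76 groups of identical values), 38 of the deposited columns sum to over 1 M, and the 9 of them more than 2% over it are recorded as signal. One symbol of each group was kept, which leaves 15771, and kept columns sum to 0.791 M to 0.989 M. Whole reads were recovered from the CPM steps: 100% of values in all 272 libraries were whole within 0.05 reads. One 2-cell fraction, number 7 of gradient B, was left out of the count models because its step was not resolved well enough.

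Tests were run with limma 3.58.1 (trend) on log2(CPM + 1) in R 4.3.3 for genes with at least 1 CPM in as many libraries as the smallest group, with Benjamini-Hochberg adjustment over all genes tested. Transcriptome stages shared 1 fit of 32 libraries; other comparisons used the groups compared. Alternatives were a pseudocount of 0.1, no filter, quantile normalization, 1 fit over all stages, other sides, edgeR 4.0.16 and DESeq2 1.42.0 on recovered reads, leaving out each library and a block on the replicate letter. On simulated reads with 100 genes changed 4-fold, 100% were recovered in each of 5 comparisons simulated (GV to MII in each kind of test, and heavy against light in MII oocytes), and 0% of other genes were called, or 0.605% between gradients and pools; later stages were not simulated. The 0.605% is no rate for unchanged genes. Its other genes included the 100 simulated 4-fold higher in the heavy fractions of MII oocytes. Simulated libraries varied independently around the mean GV profiles at a fixed spread, without a spread shared within a gradient. Their recovery is therefore no measure of power in the real samples. Replicate pairs of the real libraries differed by more than sampling noise (chi-square per degree of freedom, lowest 2.55 and median 270 over 288 pairs).

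Heavy and light sides of a gradient are paired by design; the correlation of their deviations from the stage mean was 0.005 to 0.459, above 0.1 in 18 of 24 pairs. Between stages, every pair with the same letter was above 0.1 for 4-cell and 8-cell pools (0.137 to 0.196) and for heavy fractions of morulae and blastocysts (0.119 to 0.293). The letter was taken to pair samples at these steps, after these values were seen and not from the labels. Pools with the same letter at other steps had correlations from -0.392 to 0.364, so this pairing is not established. The named genes are the 9 members, of each of 7 groups of the circuit the gene with the largest called change in a comparison described, and the 2 genes most like each member at 10 CPM or more. Members and lists were chosen with earlier results of these data known. The 2-cell transcriptome columns carry other letters than the labels and were used as 2-cell pools without a letter. The study's strain and ages were not stated and no GRCm39 genome was used here, so no coordinates are given.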

Additional observations from a re-analysis of the deposited data

Results flagged for a closer look

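In 4 of 72 groups of 4 transcriptome pools, 1 pool stood so far from the other 3 that the gap exceeded Dixon's 95% critical value for 4 values; chance gives about 1 in 20 such groups. Ccnb1 was at 742 CPM in morula pool A, below the other 3. Without this pool the change of Ccnb1 was -0.87 from 8-cell to morula, no longer a call, and -2.48 from morula to blastocyst. Cdk1 was at 286 CPM in 2-cell pool G, above the others, and the rise from zygotes was 2.26 without it. In blastocyst pool C, Cdk1 was at 38.3 CPM, below the others, and the fall from morulae was 1.05 on the log2 scale without that pool (limma adjusted p = 4.03e-05). Mos was at 3.25 CPM in 8-cell pool B, above the others, and its change from the 4-cell stage was -1.41 without it, which is a call (limma adjusted p = 5.97e-04).

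For 13 members and steps the change in the gradients differed from that in the pools by the test of the difference, with opposite signs in both kinds of library. At these steps 8.05% to 34.1% of all genes had a called difference. The share of all genes with opposite signs is not given here, so the 13 cases are a description. From GV to MII the difference, gradient minus pool, was -1.85 for Ccnb1, 5.62 for Cdk1, -1.14 for Mos, -1.19 for Wee2, 1.24 for Cdc25b and 2.63 for Cdc25c. From MII to zygote it was -2.01 for Cdk1 and 1.24 for Cdc25b. From zygote to 2-cell it was 1.43 for Ccnb2, -3.65 for Cdk1 and -2.69 for Wee1. Later it was -3.45 for Wee2 from 8-cell to morula and 1.64 for Cdk1 from morula to blastocyst. Cdk1 is the member set apart at the most steps.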

How the results depend on the processing

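Of 60 calls of members, 30 were not counted as lost under any alternative run. They were 17 of 23 in transcriptomes, 1 of 9 in heavy fractions (Wee2 from 2-cell to 4-cell) and 3 of 11 between heavy and light (Ccnb1 in MII oocytes, Ccnb1 and Ccna2 in zygotes). Between gradients and pools it was 9 of 17. These 9 include Mos from zygote to 2-cell, which was counted as reversed but did not hold with fractions 6 to 10, as given below. With 1 fit over all stages, members called heavy numbered 5 in place of 10 and light 3 in place of 1, and position changes called rose from 0 and 0 to 1 higher and 6 lower. Light calls numbered 0 without a filter, 4 with fractions 7 to 10 against 1 to 4 and 3 with fractions 8 to 10 against 1 to 3. Rises in heavy fractions went from 2 to 1 with a pseudocount of 0.1 or no filter. With fractions 6 to 10 for the gradient, members lower than in pools went from 8 to 5, and Mos from zygote to 2-cell turned from 2.12 to -0.023 (adjusted p = 0.99). Leaving out 1 library at a time gave 7 to 9 rises and 14 to 16 falls in transcriptomes, 1 to 3 and 4 to 8 in heavy fractions, 8 to 11 heavy and 0 to 2 light calls, 0 position changes, and 8 to 10 higher and 7 to 11 lower differences between gradients and pools. The cause of these shifts was not tested.

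With the replicate block, heavy and light calls were 11 and 1 in place of 10 and 1, the one gained being Ccnb2 in morulae (adjusted p = 0.039). Where the letter was taken to pair samples between stages (4-cell to 8-cell pools, morula to blastocyst heavy fractions), the block changed no call of a member. At the other steps no pairing was assumed. Over all steps 5 of 21 pairs of heavy fractions and 7 of 20 of transcriptomes had a correlation above 0.1. The block gave 2 rises and 5 falls in heavy fractions in place of 2 and 7. Cdc25c from zygote to 2-cell (adjusted p = 0.12), Mos from 2-cell to 4-cell (adjusted p = 0.051) and Ccna2 from 8-cell to morula (adjusted p = 0.078) were lost, and Wee2 from zygote to 2-cell (1.43, adjusted p = 0.038) was gained. It gave no position call and changed no call in pools. The shallowest fraction, of a GV gradient, held 0.0102 M reads. Values of members at 0 were 2.59% in GV (median 20.9 M reads), 2.22% in MII (22.8 M) and 1.85% in zygote fractions (16.6 M). They were 11.9% in 2-cell (10.0 M), 41.1% in 4-cell (8.50 M) and 32.2% in 8-cell fractions (18.3 M). In morula and blastocyst fractions they were 30.7% (31.9 M) and 22.6% (34.3 M). Mos was at 0 in 29 and Wee2 in 27 of the 30 blastocyst fractions. The part of depth in these values was not tested.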
